A study of Bos taurus with 8 samples.

Results

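In the lungs of newborn calves, 34 of 9195 measured genes (0.37%) had a signal in every cloned animal that lay clearly below the signal in every normal animal, and these 34 are described here. A gene was measured when at least 1 of its probes was well above background on all 8 arrays, and its brightest such probe stood for it. Its level is the log2 processed signal minus the array's 75th percentile, so that 0 is the brightness of that percentile and 1 unit is a factor of 2. A gene was chosen when its gap, the lowest normal level minus the highest clone level, was at least 0.58, a factor of 1.49. The clone and normal levels themselves chose the genes. Their differences between the groups are therefore given as a description, with no test, and that the groups do not overlap is not a finding.

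The tissue was lung from Holstein calves. The 4 clones had respiratory failure, died within 4 days of birth and were sampled after death, and their labels give an age of 4 days. The 4 normal animals were naturally conceived and healthy, and were slaughtered at 4 days. Total RNA was labelled with Cy3, and each animal had 1 array of a bovine Agilent design. The donor cells, the number of donor lines and each clone's exact time of death are not given in the sources used here. Cloning, respiratory failure and the manner of death moved together and cannot be told apart.

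The arrays fitted the label of lung, with the surfactant genes SFTPA1, SFTPB, SFTPC and SFTPD, the lung transcription factor NKX2-1 and the alveolar type I marker AGER well above background on all 8. SFTPC averaged 7.78 ± 0.23 in clones and 7.74 ± 0.10 in normal animals (SD, n = 4 each). The share of probes well above background ran from 78.8% to 80.6% in clones and from 80.4% to 83.5% in normal animals. The 75th percentile was at log2 signals of 10.10 to 10.49 in clones and 10.59 to 10.89 in normal animals. All 10 spike-in controls were brighter in clones after centring, by a median of 0.67. DDX3Y and USP9Y, on the Y chromosome, were above background in 3 of 4 clones (not in clone 1) and in 0 of 4 normal animals. Each group was scanned on a slide of its own, so that slide, scan and group cannot be told apart. Within groups, arrays correlated at 0.91 to 0.99 in clones and at 0.99 in normal animals across well-detected probes.

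The chosen genes belong to no single pathway. Several encode surface receptors of macrophages, granulocytes and T cells, which clear microbes and dying cells from the lung. Others handle fatty acids, triglycerides and carnitine. Single genes serve motile cilia (DRC1) or the small membrane pits called caveolae (CAVIN3), and CCN2 and CEMIP2 act on the matrix around cells. In whole tissue, fewer cells of a type and less RNA per cell cannot be told apart.

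The gap ranged between 0.58 and 3.83, with a median of 0.74, and it reached 1 in 6 genes. The difference of means, clone minus normal, ran from -6.97 to -0.82 with a median of -1.51, which corresponds to a signal 1.76 to 125-fold lower in clones. It was at least 2-fold lower in clones in 31 of the genes and less than that in 3, against a share of 3.37% at least 2-fold lower among all measured genes. Without the minimum gap, every clone lay below every normal animal in 416 genes (4.52%) and above in 488 (5.31%). The rule turned round, every clone above every normal animal by the same gap, took 27 genes (0.294%).

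**Figure D1:**
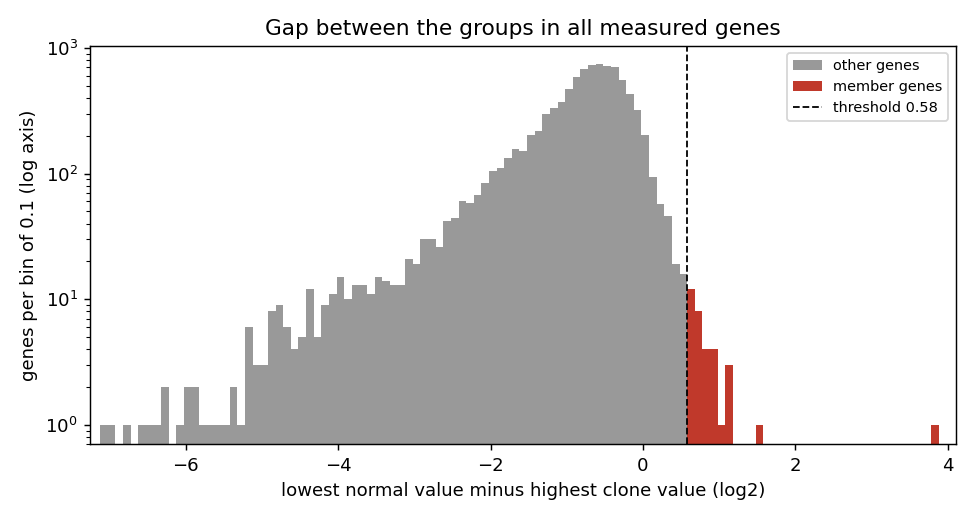
Histogram of the gap, the lowest normal level minus the highest clone level in log2 units, over all 9195 measured genes; the vertical axis is the number of genes per bin on a log scale. Member genes (red) lie right of the dashed threshold at 0.58, most of them close to it, and the gene at 3.83 is CYM.

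The values at the threshold show how little separates the last genes taken from the first left out. Just inside, MAPK8IP1 had a gap of 0.59, and SCGB2A2 and OR1J28 had gaps of 0.58. Just outside, the adenylyl cyclase gene ADCY7 had a gap of 0.58 to 2 decimals with a mean difference of -1.09. NR1H3, a lipid-sensing nuclear receptor, and MOSPD2 both had gaps of 0.57, with mean differences of -1.03 and -0.68.

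**Figure D2:**
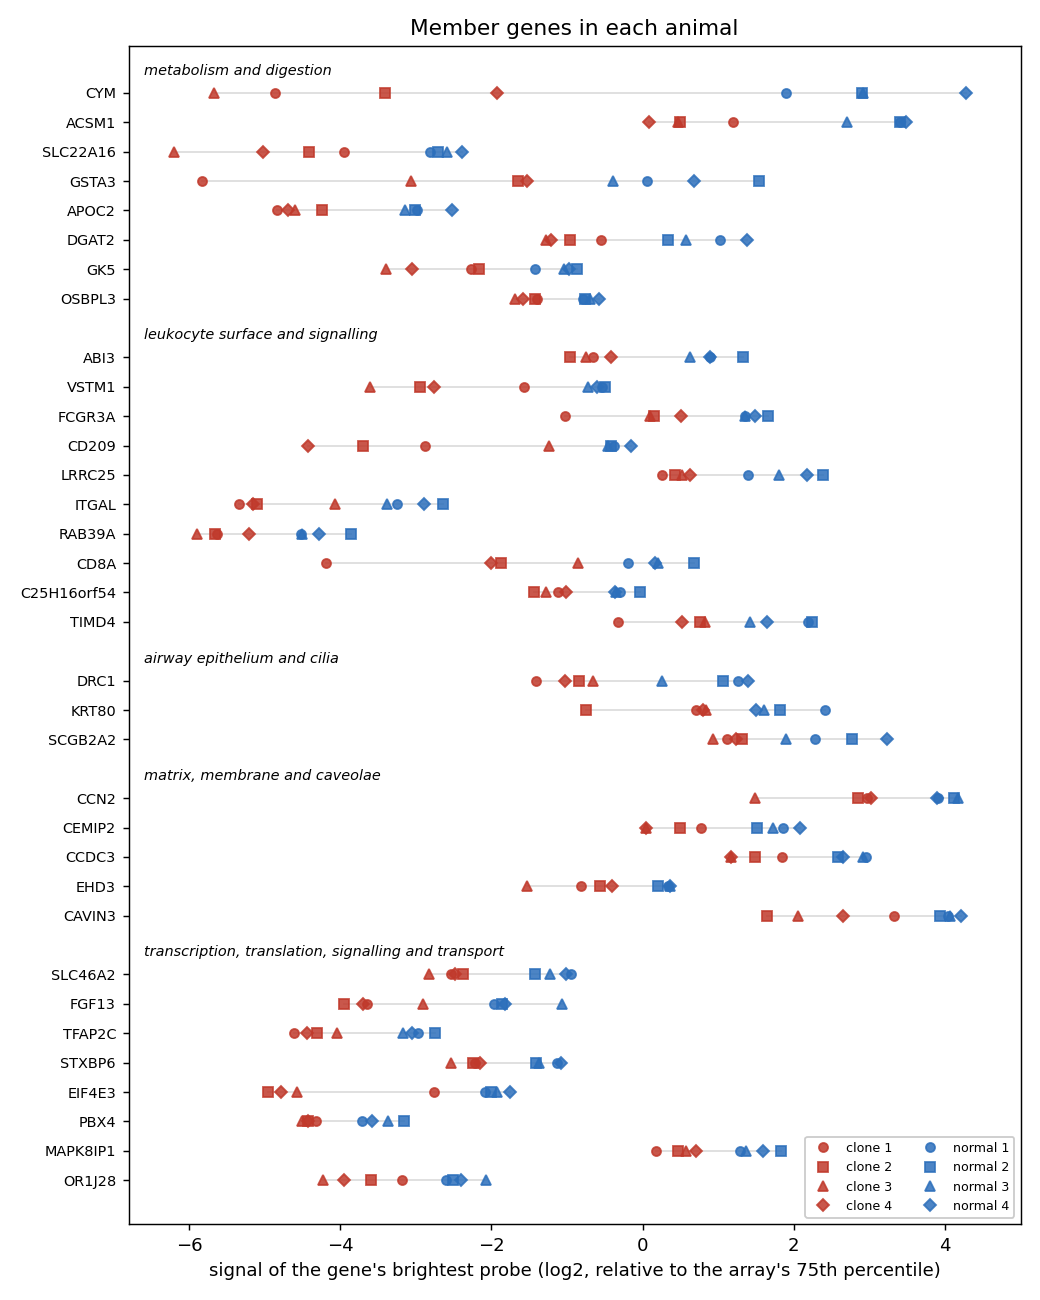
Level of each of the 34 member genes in each animal, in log2 units relative to the array's 75th percentile, grouped by role; each point is 1 animal, clones in red and normal animals in blue. On every line the lowest normal point lies right of the highest clone point by at least 0.58, and the clone points of GSTA3, CYM, CD8A and CD209 are spread most widely.

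Lipid metabolism, digestion and detoxification were represented by 8 genes, with a median difference of -2.05. CYM had the widest gap. Its product, chymosin, is the enzyme of the calf abomasum that curdles milk. It had levels of -4.87, -3.40, -5.67 and -1.93 in clones 1 to 4, against 1.90, 2.91, 2.92 and 4.27 in normal animals 1 to 4. The mean difference was -6.97, a 125-fold lower signal in clones, with SDs of 1.65 in clones and 0.98 in normal animals. CYM thus ranged widely in both groups, and the gap of 3.83 was wider than either group's own range. The difference was -5.54 (46.5-fold) with normexp background correction and quantile normalization, and -7.64 (200.1-fold) without clone 4.

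ACSM1, a mitochondrial enzyme that activates medium-chain fatty acids, had levels of 1.20, 0.49, 0.47 and 0.09 in the clones and of 3.40, 3.40, 2.71 and 3.49 in the normal animals. Its mean difference was -2.69, a 6.45-fold lower signal in clones. GSTA3 encodes a glutathione S-transferase of the alpha class and differed by -3.49, or 11.2-fold lower in clones. Its levels were -5.83, -1.64, -3.06 and -1.52 in the clones, against 0.06, 1.55, -0.40 and 0.69 in the normal animals. Clone 1 lay far below the other clones here, and the SD was 2.00 in clones and 0.84 in normal animals. Without clone 1 the difference was -2.55, or 5.86-fold lower in clones. Since alpha-class transferases are close in sequence, which copies this probe reports is uncertain.

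APOC2, the cofactor that lipoprotein lipase needs, was even within both groups but dim, at percentile 8.7 of brightness among measured genes. Its levels were -4.84, -4.25, -4.60 and -4.70 in the clones and -2.99, -3.02, -3.14 and -2.53 in the normal animals, a mean difference of -1.68. DGAT2, which completes triglyceride synthesis, had levels of -0.55, -0.96, -1.28 and -1.21 in the clones against 1.02, 0.33, 0.58 and 1.37 in the normal animals. It differed by -1.83. SLC22A16, a carnitine transporter, differed by -2.27, with clones between -6.20 and -3.95 and normal animals between -2.81 and -2.39. GK5, of the glycerol kinase family, ran from -3.39 to -2.16 in clones and from -1.42 to -0.87 in normal animals, a difference of -1.64. OSBPL3, a lipid-binding protein of membrane contact sites, differed by -0.82, with clones between -1.68 and -1.39 and normal animals between -0.79 and -0.58. OSBPL3 had the smallest mean difference among the 34, with an SD of 0.14 in clones and 0.09 in normal animals.

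The largest group, 10 genes with a median difference of -1.58, encodes receptors and proteins best known from leukocytes. ABI3, an adaptor of the WAVE complex that drives actin branching and is found in myeloid cells, had levels of -0.66, -0.96, -0.74 and -0.42 in clones 1 to 4. The normal animals had 0.89, 1.32, 0.63 and 0.89. The difference was -1.63, a 3.09-fold lower signal in clones, and the SD was 0.22 in clones and 0.29 in normal animals. The 4 clones were thus as close to each other as the 4 normal animals were.

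FCGR3A, the low-affinity IgG receptor CD16, had levels of -1.03, 0.15, 0.09 and 0.51 in the clones against 1.35, 1.66, 1.35 and 1.49 in the normal animals. It differed by -1.53, and clone 1 was the lowest. VSTM1, an inhibitory receptor of human myeloid cells, differed by -2.13, with clones between -3.60 and -1.56 and normal animals between -0.72 and -0.50. CD209, a C-type lectin of dendritic cells and macrophages, differed by -2.71. Its levels were -2.88, -3.70, -1.23 and -4.43 in the clones and -0.38, -0.42, -0.46 and -0.16 in the normal animals. Clone 3 stood above the other clones, while the normal animals lay within 0.30 of each other, and without clone 3 the difference was -3.31.

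LRRC25, a leucine-rich repeat protein of myeloid cells, ran from 0.26 to 0.62 in the clones and from 1.40 to 2.39 in the normal animals, a difference of -1.48. It is among the genes on which the clones were tightest. TIMD4, which binds phosphatidylserine on dying cells, had levels of -0.33, 0.75, 0.82 and 0.52 in the clones against 2.19, 2.25, 1.42 and 1.65 in the normal animals, a difference of -1.44. RAB39A, a small GTPase of phagosomes in macrophages, differed by -1.31, with clones between -5.89 and -5.21 and normal animals between -4.53 and -3.85.

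ITGAL was listed here as a pan-leukocyte gene and CD8A as a T and NK cell marker. ITGAL, the alpha chain of the integrin LFA-1, had levels of -5.34, -5.10, -4.07 and -5.15 in the clones and -3.25, -2.64, -3.38 and -2.90 in the normal animals, a difference of -1.87. CD8A, the alpha chain of the CD8 coreceptor, had -4.19, -1.88, -0.86 and -2.01 in the clones against -0.20, 0.68, 0.20 and 0.17 in the normal animals. It differed by -2.45, and clone 1 was the lowest again, without which the difference was -1.79. C25H16orf54, named for its human counterpart, which is expressed in leukocytes, differed by -0.94, with clones between -1.44 and -1.01 and normal animals between -0.37 and -0.03.

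Cilia and epithelium were represented by 3 genes, none of them in the lists of ciliated or of airway secretory and basal cell markers. DRC1, a subunit of the nexin-dynein regulatory complex of motile cilia, had levels of -1.40, -0.84, -0.66 and -1.03 in the clones and 1.26, 1.07, 0.25 and 1.39 in the normal animals. The difference was -1.98. KRT80, an epithelial keratin, had 0.70, -0.75, 0.84 and 0.80 in the clones against 2.42, 1.82, 1.61 and 1.51 in the normal animals, and differed by -1.44. Clone 2 stood apart from the other clones. SCGB2A2, a secretoglobin, had clone levels of 0.93 to 1.31 and normal levels of 1.89 to 3.23, a difference of -1.39.

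Matrix and caveolae were represented by 5 genes, with a median difference of -1.44. CCN2, a matrix-associated growth regulator and a target of the YAP coactivator, had levels of 2.97, 2.85, 1.48 and 3.02 in the clones and 3.91, 4.12, 4.17 and 3.90 in the normal animals. Its difference was -1.44, and clone 3 lay well below the other clones. CAVIN3, a coat protein of caveolae, had 3.32, 1.64, 2.06 and 2.65 in the clones against 4.05, 3.94, 4.06 and 4.22 in the normal animals, a difference of -1.65. The clones were spread over a wide range on both genes, the normal animals over a narrow one.

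CEMIP2, a hyaluronan-degrading membrane protein, differed by -1.45, with clones between 0.05 and 0.78 and normal animals between 1.51 and 2.08. CCDC3, a secreted protein, ran from 1.17 to 1.85 in clones and from 2.58 to 2.96 in normal animals, a difference of -1.36. EHD3, of the endocytic recycling proteins, differed by -1.15, with clones between -1.53 and -0.41 and normal animals between 0.21 and 0.36. On all 3 the SD was larger in clones than in normal animals.

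The other 8 genes act in transcription, translation, signalling and transport, with a median difference of -1.35. SLC46A2, a solute carrier known from thymic stroma, had levels of -2.54, -2.38, -2.83 and -2.48 in the clones and -0.94, -1.42, -1.23 and -1.01 in the normal animals, a difference of -1.41. FGF13, an intracellular member of the fibroblast growth factor family, differed by -1.87, with clones between -3.95 and -2.91 and normal animals between -1.96 and -1.07. TFAP2C, the transcription factor AP-2 gamma, had -4.62, -4.31, -4.04 and -4.44 in the clones against -2.97, -2.74, -3.17 and -3.06 in the normal animals. It differed by -1.36.

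EIF4E3, of the cap-binding translation factors, had levels of -2.76, -4.95, -4.57 and -4.78 in the clones and -2.09, -2.01, -1.93 and -1.75 in the normal animals. Its difference was -2.32, and clone 1 lay far above the other clones. The homeobox gene PBX4 was the most even in clones, between -4.51 and -4.32, against -3.71 to -3.16 in normal animals. It differed by -0.97. STXBP6, which binds the vesicle fusion machinery, differed by -1.04, with clones between -2.53 and -2.15 and normal animals between -1.41 and -1.08. MAPK8IP1, a scaffold of JNK signalling, also differed by -1.04, with clones between 0.18 and 0.71 and normal animals between 1.29 and 1.82. OR1J28, an olfactory receptor gene, ran from -4.23 to -3.18 in clones and from -2.60 to -2.08 in normal animals, a difference of -1.34.

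The clones varied among themselves more than the normal animals did in 24 of the 34 genes, and less in 10. Among all measured genes the SD was larger in clones in 8440, or 91.8%. The median SD of the 34 was 0.45 in clones and 0.24 in normal animals, against 0.52 in clones and 0.15 in normal animals over all measured genes. A rule that asks for a gap favours genes on which the clones are close together, so nothing is read from these counts.

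No single animal was the extreme one throughout. The median difference from the normal mean was -1.36 in clone 1, -1.35 in clone 2, -1.63 in clone 3 and -1.50 in clone 4. Clones 1 to 4 were the highest clone in 11, 4, 8 and 11 of the genes and the lowest in 10, 6, 15 and 3. Clone 3 was thus the lowest most often. Among the normal animals, animals 2 and 4 were the highest in 14 and 13 genes, and animals 1 and 3 the lowest in 13 and 11.

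The other probes of the same genes share the samples but not the probe that the rule used. Of the 34 genes, 19 had at least 1 other well-detected probe, 26 probes in all. The mean was lower in clones on 25 of them, and every clone lay below every normal animal on 19, or 73.1%. For second probes of all measured genes that share was 5.71%, and for those of genes outside the 34 it was 5.53%. The arrays are the same ones, so this compares probes and not animals.

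ACSM1 differed by -2.65 and -2.76 on its other probes, close to the -2.69 above, and GSTA3 by -3.28. DGAT2 differed by -2.19 and -2.18 on its others, and CCN2 by -1.73. FCGR3A differed by -1.39 and -1.38. On 7 probes, of 5 genes, the groups overlapped. The second probe of ABI3 differed by -1.23, and those of CEMIP2 by -0.73, -0.70 and -0.80, against the -1.45 of its brightest. CCDC3 differed by -0.71 and one probe of MAPK8IP1 by -0.61. EIF4E3 is the exception in direction, with 0.03 on its other probe against -2.32 on the brightest. A further 10 probes, of 8 genes, were not well above background on all 8 arrays. Both further probes of CYM were well above background in all 4 normal animals, and in 2 and 1 of the clones, so no difference is given for them. Both further probes of SLC22A16 were well above background in all 4 normal animals and in 0 clones.

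**Figure D3:**
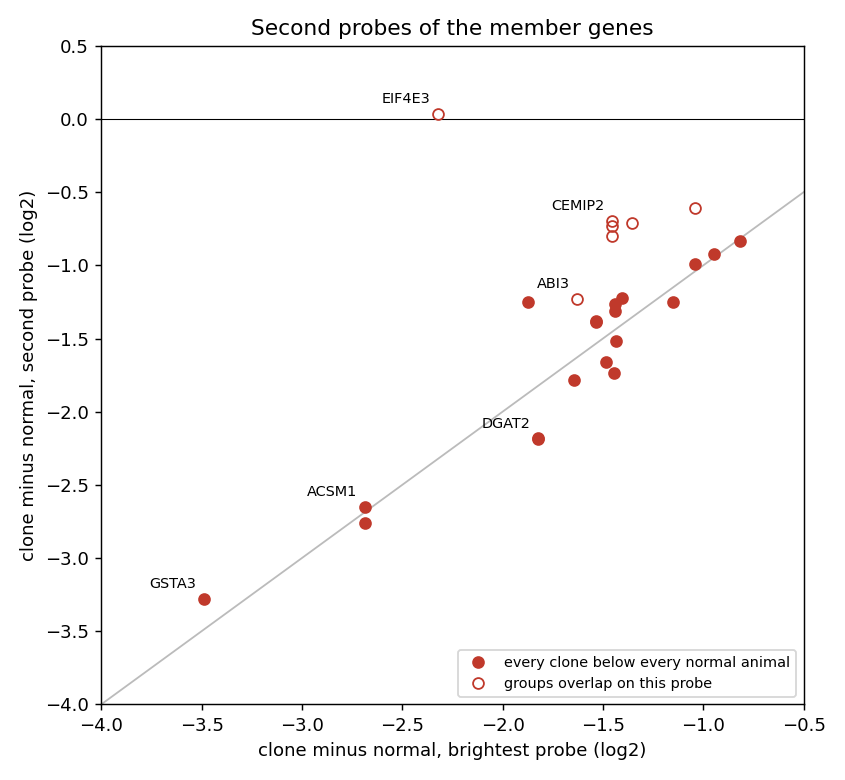
Clone minus normal difference in log2 units on the brightest probe (horizontal) and on each other well-detected probe (vertical) of 19 member genes; the grey line marks equal differences, and filled points are probes on which every clone lay below every normal animal. Of 26 probes, 19 are filled, and EIF4E3 at 0.03 is the one above 0.

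Among 44 lists of markers and pathway genes, 9 held any of the 34 genes, and 26 of the 34 were in no list. The counts that follow leave the 34 out, and over all measured genes the median difference was -0.01, with 4663 (50.7%) lower in clones. Pan-leukocyte genes were lower on average in clones in 16 of 17, with a median of -0.59. Their mean level ran from 0.09 to 0.96 in clones and from 0.77 to 1.18 in normal animals. Macrophage markers had a median of -0.56, with 9 of 13 lower, and a mean level of 0.47 to 2.13 in clones and 1.85 to 1.95 in normal animals. Neutrophil markers had a median of -0.71, with 10 of 14 lower, and a mean level of -2.13 to -0.18 in clones and -0.83 to -0.18 in normal animals. T and NK cell markers had a median of -0.33, with 14 of 17 lower, and a mean level of -1.44 to -1.11 in clones and -1.20 to -0.36 in normal animals. On all 4 of these lists the groups overlapped. Whether fewer leukocytes were present was not tested.

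Ciliated cell genes were lower on average in clones in all 25 measured, with a median of -1.09. Their mean level ran from -2.90 to -1.72 in clones and from -1.96 to -1.05 in normal animals, so the groups overlapped. DRC1 was not in that list. Xenobiotic metabolism genes were lower in 15 of 19, with a median of -0.76. Their mean level ran from -0.12 to 0.77 in clones and from 0.98 to 1.42 in normal animals, without overlap. In 4 of the 19 every clone lay below every normal animal, against 4.52% of all genes. Airway secretory and basal cell markers were higher on average in clones in 7 of 12, with a median of 0.11. Their mean level ran from 0.63 to 2.68 in clones and from 1.22 to 1.84 in normal animals. Endothelial markers and the surfactant and alveolar type II genes both had a median of 0.04. Other lists were higher on average in clones. Among them were cell cycle genes in 19 of 19 (median 1.73), interferon response genes in 11 of 14 (1.01) and fibroblast and matrix genes in 16 of 21 (0.53). On these the mean levels of the groups overlapped, for the cell cycle at -2.49 to 0.75 in clones and -3.10 to -1.79 in normal animals. They did not overlap on hypoxia genes, higher in 15 of 18 (median 0.64), at 2.07 to 2.53 against 1.57 to 1.74. Nor did they on chromatin and DNA methylation genes, higher in 11 of 15 (0.25), at 1.21 to 1.43 against 0.63 to 0.87. Centring on the spike-ins, which put the median of all genes at -0.69, would turn the fibroblast, hypoxia and chromatin medians and those at 0.11 and 0.04 below 0. The part of these lists in the lower levels of the 34 was not tested.

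Beside CYM, 3 stomach genes were measured, PGA5 at -1.02, ATP4A at -0.70 and CLDN18, which the lung also expresses, at -0.04. Every clone lay below every normal animal on PGA5 and ATP4A, and over all genes that share was 4.52%. Fatty acid oxidation genes were lower in 13 of 20, and genes of triglycerides and lipoproteins in 11 of 18. Whether gastric material reached the sampled tissue was not tested.

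Genes that work beside members of the 34 gave a mixed picture. None were listed for VSTM1, LRRC25, RAB39A, GK5, CCDC3, STXBP6, OR1J28 and C25H16orf54. Of 136 such genes measured, 92 (67.6%) had a lower clone mean, against 50.7% of all measured genes, and the median difference was -0.15. Every clone lay below every normal animal in 11 (8.09%), against 4.52% of all genes, and above in 5, where the share of all genes was 5.31%. Beside DRC1, all 6 other measured genes of the nexin-dynein complex had a lower clone mean, from -1.35 for CCDC65 to -0.30 for IQCD. Every clone lay below every normal animal in 2 of them, CCDC65 and IQCG at -0.84. On the others the groups overlapped, among them CCDC153 at -1.16 and DRC3 at -0.95. Beside SCGB2A2, the secretoglobin gene SCGB1D differed by -2.27 and SCGB1A1, the club cell secretoglobin, by -1.80, the second with overlapping groups. Beside FCGR3A, all 6 Fc receptor partners had a lower clone mean, SYK at -1.12 and FCER1G at -0.92, with overlapping groups.

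The following groups differed less than the gene they stand beside. The partners of ABI3 in the WAVE complex ran from -0.63 for NCKAP1L, its leukocyte subunit, to 0.57 for WASF1, with BRK1 at -0.50. Beside CD8A at -2.45, the T cell genes ran from -0.48 for CD3E to 0.04 for CD4, with 6 of 7 lower on average in clones. Beside ITGAL at -1.87, all 4 integrin genes and ligands had a lower clone mean, from -0.71 for ICAM3 to -0.26 for ICAM1, with its partner chain ITGB2 at -0.29. Beside CAVIN3, 7 of 9 genes of caveolae and EHD proteins had a lower clone mean, with a median of -0.30. Beside EIF4E3, 4 of 6 cap-binding factors had a higher clone mean, with EIF4E at 0.09. So did 4 of 6 keratins beside KRT80 (median 0.11) and 4 of 5 receptors and bridges for dying cells beside TIMD4 (median 0.26).

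Among the lipid genes, all 6 carnitine genes beside SLC22A16 had a lower clone mean, from -0.62 for CPT2 to -0.05 for SLC22A5, with overlapping groups. All 6 acyl-CoA synthetases beside ACSM1 also had a lower clone mean, with a median of -0.18. Triglyceride synthesis beside DGAT2 was split, with 6 lower and 4 higher. DGAT1, the other triglyceride-completing enzyme, differed by 0.45 with every clone above every normal animal, and GPAM, which starts glycerolipid synthesis, by -0.93. LPL differed by -0.68 and APOE by 0.13. ACSM2B, a close relative of ACSM1, differed by -1.17 with every clone below every normal animal. The alpha-class transferases GSTA1 and GSTA2 differed by -0.98 and -0.92, less than GSTA3 and with overlapping groups.

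**Figure D4:**
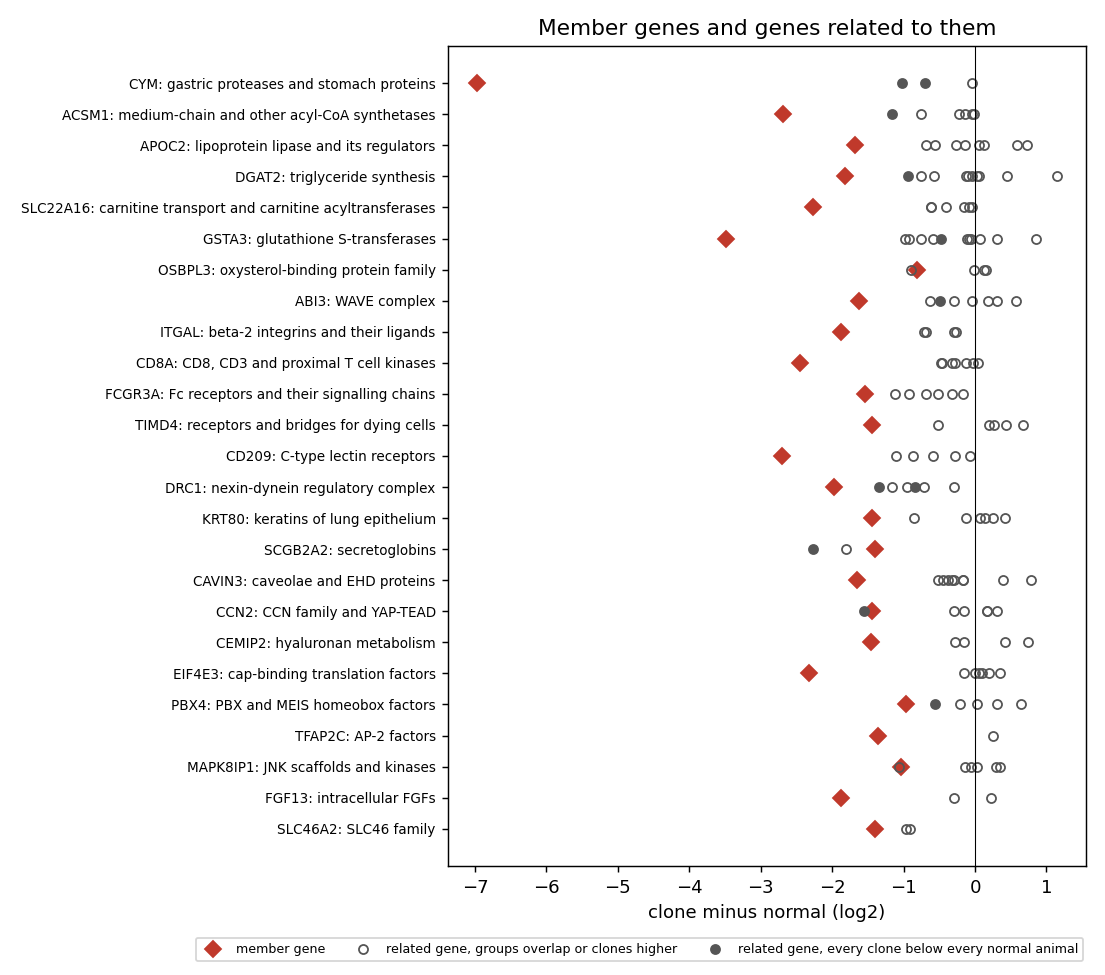
Clone minus normal difference in log2 units of member genes (red diamonds) and of measured genes related to them (circles), 1 line per group of related genes; open circles are genes whose groups overlap or whose clones lie higher, and filled circles are genes in which every clone lay below every normal animal. Most circles lie right of the diamond of their line, the exceptions being both secretoglobin genes and 1 gene each of the CCN, oxysterol-binding and JNK groups.

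The 34 genes did not lie side by side in the genome. None of them neighboured another, and of 28 measured neighbours, 15 had a lower clone mean, with a median of -0.01. Every clone lay below every normal animal in 3 of these 28 neighbours, against 4.52% of all measured genes, namely ACSM2B beside ACSM1, SCGB1D beside SCGB2A2, and FREY1 at -1.03. Among all 9195 genes, limma called 6 lower in clones (0.0653%) at a Benjamini-Hochberg adjusted p under 0.05 over all 35635 probes. These are CYM, ACSM1, APOC2, ABI3, SLC46A2 and TFAP2C, all of them among the 34. The contrast is the one that chose the genes, so nothing is read from this overlap.

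Which genes passed the gap depended on scaling and on single animals. With quantile normalization 38 genes passed, 31 of them among the 34, and the authors' value table gave the same counts. Centring on the median of well-detected probes gave 33, without CAVIN3 and OR1J28. Centring on the spike-ins let 386 genes pass, among them all 34. Normexp background correction left 18 with 75th percentile centring and 23 with quantile normalization, 18 of the 34 in each. With the first, the groups overlapped on RAB39A and PBX4. With the second, 13 of the 34 differences moved by over 1.5 times as a fold. Among them were APOC2 at -0.77, SLC22A16 at -0.99, RAB39A at -0.37, ITGAL at -0.74 and TFAP2C at -0.60. Under these 6 scalings, 12 genes passed every time, and they include CYM, ACSM1, GSTA3, ABI3, DRC1, DGAT2, VSTM1 and CD209. The 6 are not separate checks. Quantile normalization and the authors' table lost the same genes, PBX4, OSBPL3 and OR1J28, and spike-in centring lost none. PBX4 and OR1J28 passed least often. The mean over all probes of a gene kept 27 of the 34, without ABI3 and EIF4E3 among others.

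Leaving out an animal cannot narrow a gap, so that the 34 pass again is fixed by the rule and is no sign of stability. The number of further genes that then pass shows how much single animals decided. Without clone 1, 176 genes passed, without clone 3, 98, and without normal animal 3, 86. Without each of the other 5 animals in turn, between 39 and 51 passed. In all 6 scalings the mean clone level of each of the 34 lay below the mean normal level. The same arrays chose the genes by a wide gap, so this too is no sign of stability.

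**Figure D5:**
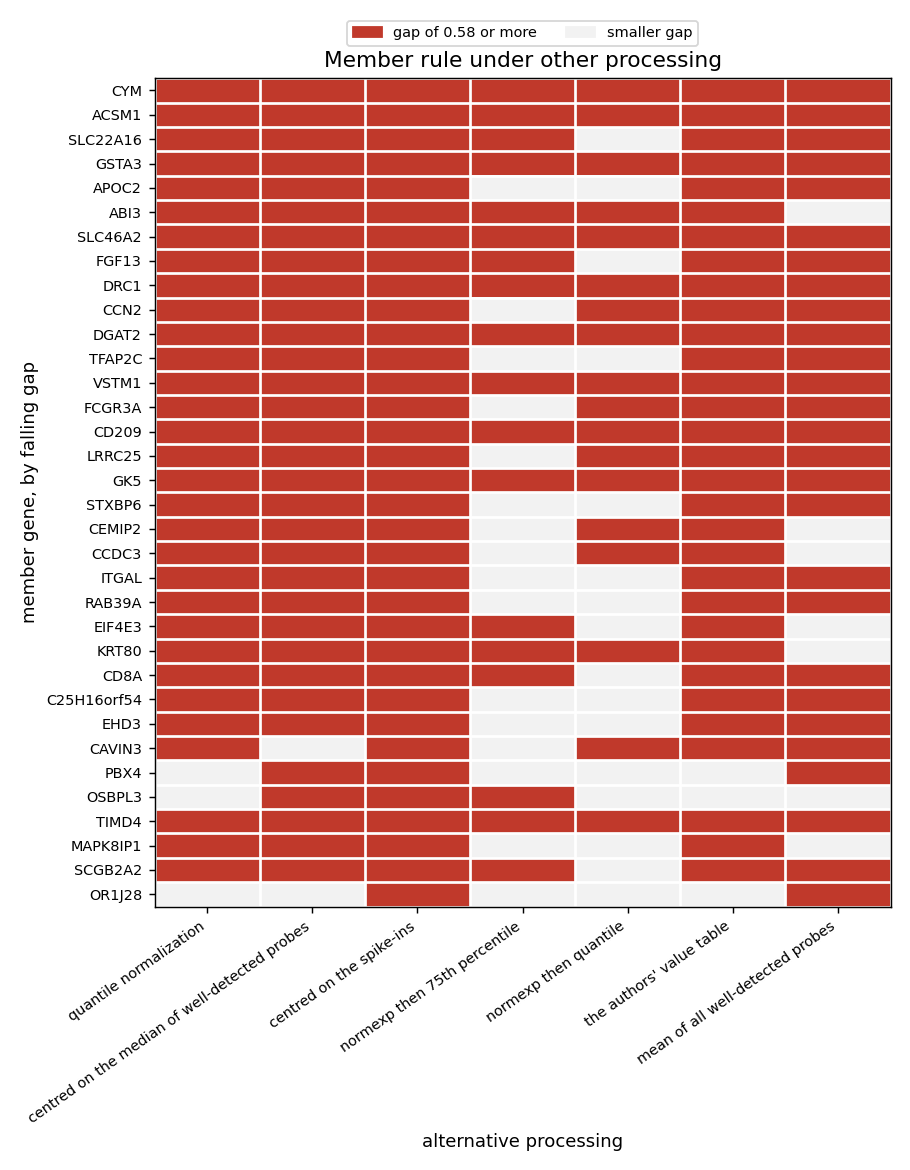
Each of the 34 member genes (vertical, by falling gap) under 6 other scalings and under the mean of all well-detected probes (horizontal); red cells mark a gap of at least 0.58 and pale cells a smaller gap. Pale cells are most frequent in the columns of normexp background correction, which kept 18 of the 34 each, and in the lines of the genes with the smallest gaps.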

How the data were processed

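Lung RNA of 4 cloned and 4 normal calves was measured on 1-colour arrays, grouped by the sample titles. Per the file headers, the deposited scanner files hold processed intensity in linear units with the background subtracted, not normalized between arrays. Agilent Feature Extraction 10.7 made these files, per the submitters' processing notes. The authors' deposited value table holds log2 values and served as an alternative, with its normalization step not stated in these sources. It gave nearly the values of quantile normalization, so it is no separate alternative. With both, the median difference of the 34 was -1.54, and limma called 60 probes (19 higher, 41 lower in clones). Arrays give no depth, and their number limits the precision.

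Control spots and outlier spots, 2 to 21 of 43803 per array, were left out, and no spot was saturated. From the log2 intensity, the array's 75th percentile was subtracted. Of 43653 probes, 23492 obtained a gene symbol from their accession through a table of bovine RefSeq genes on ARS-UCD2.0, and 19025 of these were well above background on all 8 arrays. The array design is older, so no coordinates are given and the table served for names and neighbours.

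Limma 3.58.1 in R 4.3.3 (lmFit, eBayes, group as the only term) was fitted to the 35635 probes well above background on at least 4 of 8 arrays, with Benjamini-Hochberg adjustment over all of them and a threshold of 0.05. The fit and the gap rule were tested on simulated data that gave both groups the same SD. In these data the SD was larger in clones for 91.8% of measured genes. The simulation therefore does not show how the fit or the rule behaves here. Named are ABI3, the 25 members with the widest gaps, the members in each gene list, those at the threshold and those with the most extreme SD, signal or number of probes. The other members were named after their values were seen. The members, roles, related genes and lists were chosen with earlier results of these data known. Normexp (offset 50) used median signal and median background, since the files hold no mean signal. Alternatives were other scalings, filters, gaps and variance models, and leaving out each animal. List counts without the member genes were added after seeing the data.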

Additional observations from a re-analysis of the deposited data

Results flagged for a closer look

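In 5 of the 68 groups of 4 animals that the 34 genes give, 1 animal stood apart from the other animals of its group by Dixon's test, and chance gives about 1 in 20 groups. The rule chose the genes by these same levels, so that rate need not hold here. Among clones, CCN2 in clone 3 was at 1.48, below the other clones at 2.85 to 3.02, and KRT80 in clone 2 was at -0.75, below the others at 0.70 to 0.84. Among normal animals, ACSM1 in animal 3 was at 2.71, below the others at 3.40 to 3.49. FGF13 in normal animal 3 was at -1.07, above the others at -1.96 to -1.82. EHD3 in normal animal 2 was at 0.21, below the others at 0.34 to 0.36.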

How the results depend on the processing

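With 4 animals a group, on 1 slide per group, no test here separates cloning from slide or respiratory failure, and a slide block could not be fitted. Y-linked genes were above background in 3 of 4 clones, not in clone 1, and in 0 of 4 normal animals. An effect of sex was not tested. In the 6 scalings the mean of each of the 34 genes was lower in clones, but the same arrays had chosen the genes. The number of genes passing the gap was 34. It was 386 with centring on the spike-ins and 18 with normexp and 75th percentile centring. It was 54 with detection on at least 4 arrays, 59 with no filter, 111 at a gap of 0.3 and 6 at a gap of 1. Leaving out 1 animal gave 39 to 176. With the spike-ins the median gap of the 34 was 1.38 and the median difference -2.19. Leaving out 1 animal gave a median gap of 0.75 to 0.87 and a median difference of -1.61 to -1.50, but the choice of the genes keeps their gaps from narrowing and their differences from turning. Limma called 63 probes (17 higher, 46 lower in clones). It called 10692 with the spike-ins (69 higher, 10623 lower), 25 with normexp and quantile normalization, and 17 with detection on all 8 arrays. It called 145 with trend and robust settings (85 higher, 60 lower) and 11527 with array weights (5598 higher, 5929 lower), which were 0.12 for clone 1 and 0.10 for clone 3, and 1.46 to 4.44 for the other animals. With normexp and 75th percentile centring it called 0, while 2530 had an unadjusted p under 0.05. Leaving out 1 animal gave 17 to 2566, with 2566 without clone 1 (1426 higher, 1140 lower), 445 without clone 3, 32 without clone 4, and 17 to 31 without a normal animal. The cause was not tested. The replicate block called 13 probes (3 higher, 10 lower). The replicate numbers do not pair the animals, since same-numbered animals' deviations correlated at -0.20 to 0.10, and clones 1 and 2 alone correlated best with their own number.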
